A study of Homo sapiens with 49 samples.

Results

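The cytosolic ribosomal protein genes encode the protein part of the ribosome that translates nuclear messages. They were followed here in 2 human neuroblastoma cell models, 1 with a transcription factor shut down and 1 with a transcription factor knocked down. Members were all gene symbols with the names of large-subunit (RPL) or small-subunit (RPS) proteins, together with RPLP0, RPLP1, RPLP2 and RPSA, whose mean unnormalised FPKM (fragments scaled by transcript length and library size) was at least 1. The rule matched 86 names, and 82 of 23621 gene entries passed the level threshold in each table: 43 large-subunit genes, 31 small-subunit genes, 3 stalk genes and 5 paralogs, which are second gene copies with a related product. The same 82 names passed in both models. The other 4 names, RPL3L and RPL10L among them, did not pass; RPL3L averaged 0.0027 FPKM and RPL10L was listed at 0 in every library of the first model.

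SHEP-21N is a neuroblastoma line carrying a MYCN transgene that doxycycline shuts down (a TET-off system). It was sampled at 0 h (2 libraries) and at 2, 4, 6, 8, 16 and 24 h (3 libraries each) of doxycycline at 0.2 µg/ml, and its 0 h cells express the transgene. BE(2)-C, a neuroblastoma line, carried a doxycycline-induced hairpin RNA against TWIST1 (a TET-on system) and was sampled without doxycycline and at 3, 6, 12, 24 and 48 h of doxycycline at 0.5 µg/ml, with 3 libraries each. All BE(2)-C groups, the controls included, carry the hairpin construct, and no hairpin of another target and no doxycycline-treated line without a construct enters either comparison. MYCN and TWIST1 are transcription factors; the series addresses how MYCN at enhancers shapes transcription. Libraries are named by the numbers 0 to 2 that their columns carry.

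A ribosome is built from ribosomal RNA and about one protein for each ribosomal protein gene, so these genes are usually expressed together and at very high level. Transcription factors of the MYC family are known to raise the output of the ribosome assembly programme, and MYCN is amplified in a subset of neuroblastomas. The messages of ribosomal protein genes typically begin with a C followed by an unbroken stretch of pyrimidines, the 5′ terminal oligopyrimidine (TOP) tract, through which growth signalling controls their translation.

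The first bases of 8 members were read from the RefSeq promoter table (GRCh38.p14), chosen because the results below turn on them. Each line runs 5′ to 3′ on the gene's strand from 15 bases before the annotated start to 15 bases from it, and capitals mark the pyrimidine tract found within 5 bases of the start. RPL18 lies at chr19:48619164-48619193 (minus strand), RPL36 at chr19:5690280-5690309 (plus), RPLP0 at chr12:120201097-120201126 (minus) and RPL13A at chr19:49487593-49487622 (plus). RPL22 lies at chr1:6199581-6199610 (minus), its paralog RPL22L1 at chr3:170870181-170870210 (minus), RPS27 at chr1:153990747-153990776 (plus) and its paralog RPS27L at chr15:63157463-63157492 (minus).
RPL18: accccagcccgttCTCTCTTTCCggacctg
RPL36: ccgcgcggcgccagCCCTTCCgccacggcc
RPLP0: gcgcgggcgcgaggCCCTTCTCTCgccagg
RPL13A: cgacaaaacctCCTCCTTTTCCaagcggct
RPL22: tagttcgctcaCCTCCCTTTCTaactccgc
RPL22L1: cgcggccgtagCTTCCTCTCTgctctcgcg
RPS27: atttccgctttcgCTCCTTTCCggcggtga
RPS27L: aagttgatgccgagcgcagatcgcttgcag

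Of these 8, RPS27L has no tract at its annotated start. Among the members, 66 of 82 had an entry in the promoter table and 51 of the 66 (77.3%) had such a tract (a C within 5 bases of the start and at least 4 more pyrimidines), against 22.8% of 8531 genes tested in SHEP-21N and 21.1% of all 35116 promoters in the table. In the window of 250 bases before to 50 bases after the start, searched on both strands, the E-box CACGTG was in 4 of 66 member promoters (6.06%; RPL7L1, RPL19, RPS28 and RPL13A), against 10.5% of tested genes and 7.26% of all promoters. CGGAAGT, an ETS-type motif, was in 21 (31.8%), against 14.9% of tested genes and 6.83% of all promoters. AAGATGG, a YY1-type motif, was in 9 (13.6%, against 8.23% of tested genes and 5.84% of all promoters), and TATAAA was in 6 (9.09%, against 5.01% of tested genes and 11.5% of all promoters). No motif contains another, and a match describes the sequence only.

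The targeted genes moved as the labels say. In SHEP-21N, MYCN averaged 14.1 rescaled FPKM at 24 h, against 789.1 at 0 h. TWIST1 in BE(2)-C averaged 7.81 rescaled FPKM at 48 h, against 81.4 without doxycycline, and on the unnormalised scale 18.1 against 64.9. SHEP-21N libraries held 7 of 7 mesenchymal neuroblastoma markers and 3 of 8 adrenergic ones at 1 FPKM or more (PHOX2A, GATA3, DBH and TH were among those below), while BE(2)-C libraries held 8 of 8 adrenergic and 2 of 7 mesenchymal markers (FN1, PRRX1, COL1A1, CD44 and YAP1 were below). Markers of blood cells summed to at most 38.5 FPKM, reached in 1 BE(2)-C library at 3 h. The number of reads behind each library is unknown, because the files hold FPKM only.

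Every value exists on 2 deposited scales, and the choice between them decides what can be said about these genes. The rescaled FPKM were brought to the ERCC spike-ins, synthetic RNAs added to lysates of counted cells, and the spike-ins then sum to between 32690 and 36589 FPKM in each library; these values follow RNA per cell. The unnormalised FPKM follow a gene's share of its library. Another scale centres each rescaled library on the median of its tested genes. Tests are limma on log2(FPKM + 1) across all tested genes (11867 in SHEP-21N, 11433 in BE(2)-C), with a call at a Benjamini-Hochberg adjusted p under 0.05, and fold changes are on that log2 scale. The labels do not say that libraries came from separate cultures, so the p-values measure the spread between these libraries, which may be technical.

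Before treatment, the members ran from 18.5 to 8376 unnormalised FPKM in single libraries, and both lines ordered them alike. RPS27, a small-subunit protein, stood highest in SHEP-21N, at 7694 and 7817 unnormalised FPKM in the 0 h libraries, and had 5241, 7883 and 4850 in the BE(2)-C libraries without doxycycline. RPL37A, a large-subunit protein, had 4689 and 4743 unnormalised FPKM in SHEP-21N and 5117, 8376 and 4605 in BE(2)-C. RPL41, among the shortest of all proteins, had 5790 and 5828 in SHEP-21N and 4753, 7002 and 4445 in BE(2)-C. In each gene BE(2)-C library 1 was the highest of its group, so RPS27 and RPL37A cannot be put in order there beyond the spread. Over all libraries the 5 highest means belonged to RPS27, RPL41, RPL39, RPS18 and RPLP1 in SHEP-21N, and RPS27, RPL37A, RPL41 and RPS2 were among the 5 highest in BE(2)-C.

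The lowest members were mostly the paralogs. RPL22L1 had 49.7 and 55.4 unnormalised FPKM in SHEP-21N at 0 h and 52.9, 84.0 and 52.1 in BE(2)-C without doxycycline. RPL39L, a copy of RPL39 known from testis and tumours, had 75.7 and 84.2 in SHEP-21N and 67.5, 105 and 64.7 in BE(2)-C, overlapping RPL22L1 in BE(2)-C. RPS27L, a p53-responsive copy of RPS27, had 98.0 and 103.6 in SHEP-21N and 22.0, 29.6 and 18.5 in BE(2)-C. RPS27L thus had the lowest control mean in BE(2)-C and ranked above RPL22L1 and RPL39L in SHEP-21N. RPL21, a canonical large-subunit protein whose gene has many processed pseudogenes, averaged 127.5 in SHEP-21N and 257.3 in BE(2)-C and moved erratically between libraries of a group. Across the 82 members, log2 control levels in both lines had a Pearson r of 0.95 and a Spearman rho of 0.881, a description over genes that share libraries. Reads of ribosomal protein genes can be shared with pseudogenes, and the sources used here do not say how the counting treated them.

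**Figure D1:**
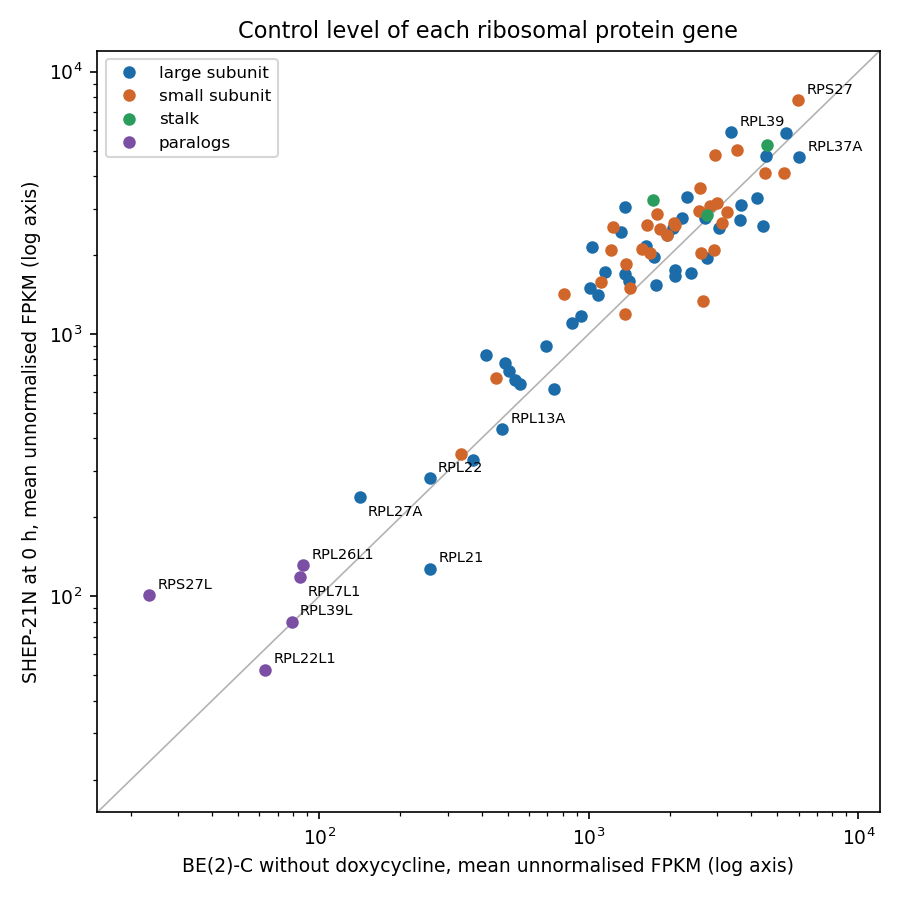
Mean unnormalised FPKM of each of the 82 genes in SHEP-21N at 0 h (vertical axis) against BE(2)-C without doxycycline (horizontal axis), both axes logarithmic, coloured by subunit, 1 point per gene. Points follow the diagonal of equal values (Pearson r 0.95 on log2 values), and RPS27L lies above it, at 100.8 FPKM in SHEP-21N and 23.4 FPKM in BE(2)-C.

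Some libraries stood apart before any comparison. Without doxycycline, BE(2)-C library 1 had a summed unnormalised member level of 216300 FPKM, against 139800 and 130200 FPKM in libraries 0 and 2, and its members held 29.0% of the FPKM of tested genes (small RNA entries left out), against 24.2% and 23.4%. In the same library RPL7L1 went the other way, at 57.8 unnormalised FPKM against at least 95.8 in the other control libraries. In SHEP-21N, library 0 of the 4 h group had the lowest member levels of that group on the unnormalised scale, with a median log2 level of 10.67 against 10.85 and 10.91. The main counts of calls that rest on these libraries are given with and without them. Changes of single genes on the unnormalised scale are given with all libraries only. Sequencing indices of the SHEP-21N 8, 16 and 24 h libraries repeat those of the 0, 2 and 4 h libraries, so a sequencing pool and the time cannot be told apart there.

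**Figure D2:**
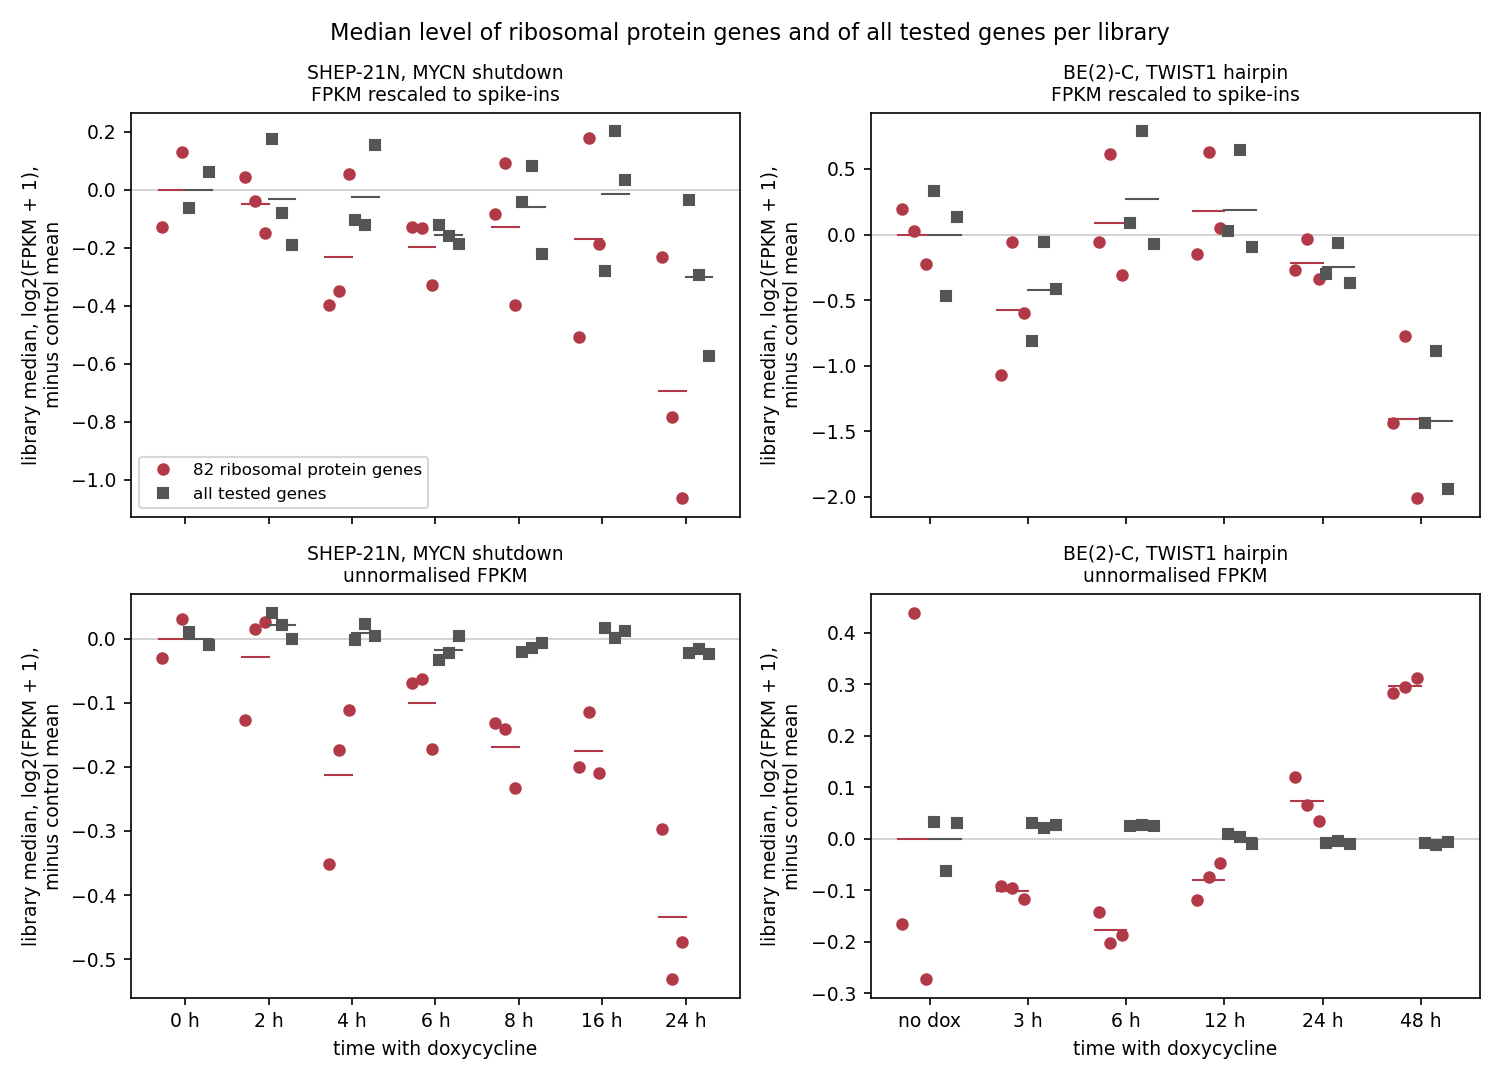
Median log2(FPKM + 1) over the 82 genes (red) and over all tested genes (grey) in each library, minus the mean of the control libraries, by time of doxycycline, on the rescaled scale (top) and the unnormalised scale (bottom); short lines are means of a time. Before subtraction the unnormalised member medians were 10.49 to 10.73 at 24 h in SHEP-21N, below both 0 h libraries, and in BE(2)-C at 48 h they were 11.004 to 11.033, below control library 1 and above the other control libraries.

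From 2 to 16 h after MYCN shutdown, no member was called in SHEP-21N on the rescaled scale, although most changes lay below 0. The number called by limma was 0 of 82 at 2, 4, 6, 8 and 16 h, and the number at an unadjusted p under 0.05 was 0, 0, 2, 0 and 1. The background on that scale was low too, since 0.0506%, 0.0758%, 7.54%, 3.83% and 3.04% of all tested genes were called lower at these times. The median change over members was -0.04, -0.28, -0.21, -0.18 and -0.17 in the same order, and over all tested genes it was -0.04, -0.05, -0.14, -0.06 and -0.03. At 4 h the change was negative in 81 of 82 members.

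On the unnormalised scale, where the spread was smaller, part of the members had fallen from 4 h on. None of 82 was called lower at 2 h (2 at an unadjusted p under 0.05, background 0.345%), 38 at 4 h (background 18.1%), 14 at 6 h (29.8%), 31 at 8 h (29.2%) and 22 at 16 h (27.5%). Only at 4 and 8 h was the members' share of calls above the background, at 46.3% and 37.8% of members. Of the counts below with a library left out, only the unnormalised one without 4 h library 0 has its own share of all genes beside it. The 4 h count was 10 without 4 h library 0 (background 11.8%), 11 without 4 h library 1, 21 without 0 h library 1, 1 without 0 h library 2 and 62 without 4 h library 2. Without 0 h library 2 the 6, 8 and 16 h counts were 3, 9 and 8, and the 6 and 8 h counts were 6 and 17 without library 2 of their own time. Centred on library medians, 11, 4, 7 and 12 members were lower at 4, 6, 8 and 16 h, against backgrounds of 13.6%, 24.1%, 23.1% and 25.4%; without 0 h library 2 these counts were 0, 0, 0 and 2, and the 4 h count was 42 without 4 h library 2 and 1 without 4 h library 0 or 1.

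Among the members that fell early on this scale were RPL28 and RPL18, both large-subunit proteins. RPL28 had 637.3 and 652.1 unnormalised FPKM at 0 h, 551.8, 553.9 and 580.7 at 2 h, 441.8, 422.2 and 527.2 at 4 h, 487.5, 476.4 and 398.7 at 6 h, 441.4, 489.9 and 444.0 at 8 h, 468.1, 475.0 and 459.3 at 16 h, and 451.0, 439.2 and 409.5 at 24 h. From 2 h on every library lay below both 0 h libraries, and from 4 to 24 h the libraries stayed within 398.7 to 527.2 FPKM. RPL28 fell by 0.48, 0.51, 0.49 and 0.46 on the unnormalised log2 scale at 4, 6, 8 and 16 h (limma adjusted p = 0.0023, 0.000313, 0.000396 and 0.000593), and its 24 h libraries did not differ from the 8 h libraries beyond the spread (-0.08, SE 0.0805, adjusted p = 0.484). RPL18 fell by 0.44, 0.48 and 0.56 at 6, 8 and 16 h on that scale (adjusted p = 0.00187, 0.000918 and 0.000279) and, unlike RPL28, was called lower again between 8 and 24 h (-0.27, SE 0.0883, adjusted p = 0.0267). None of these early changes passed on the rescaled scale, where RPL28 had -0.61 at 6 h (SE 0.249, adjusted p = 0.111).

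RPL5, which with RPL11 and 5S ribosomal RNA forms the particle that can bind the p53 regulator MDM2, was the exception. It had 1230, 1238 and 1288 unnormalised FPKM at 6 h, against 1091 and 1118 at 0 h, and the groups did not overlap. It was the only member called higher at 6 h (0.18, SE 0.0627, limma adjusted p = 0.0228), and also on the centred scale (0.24), while the rescaled change was 0.08 (SE 0.223, adjusted p = 0.828). Of all tested genes, 26.8% were called higher at 6 h on the unnormalised scale and 27.1% on the centred scale.

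**Figure D3:**
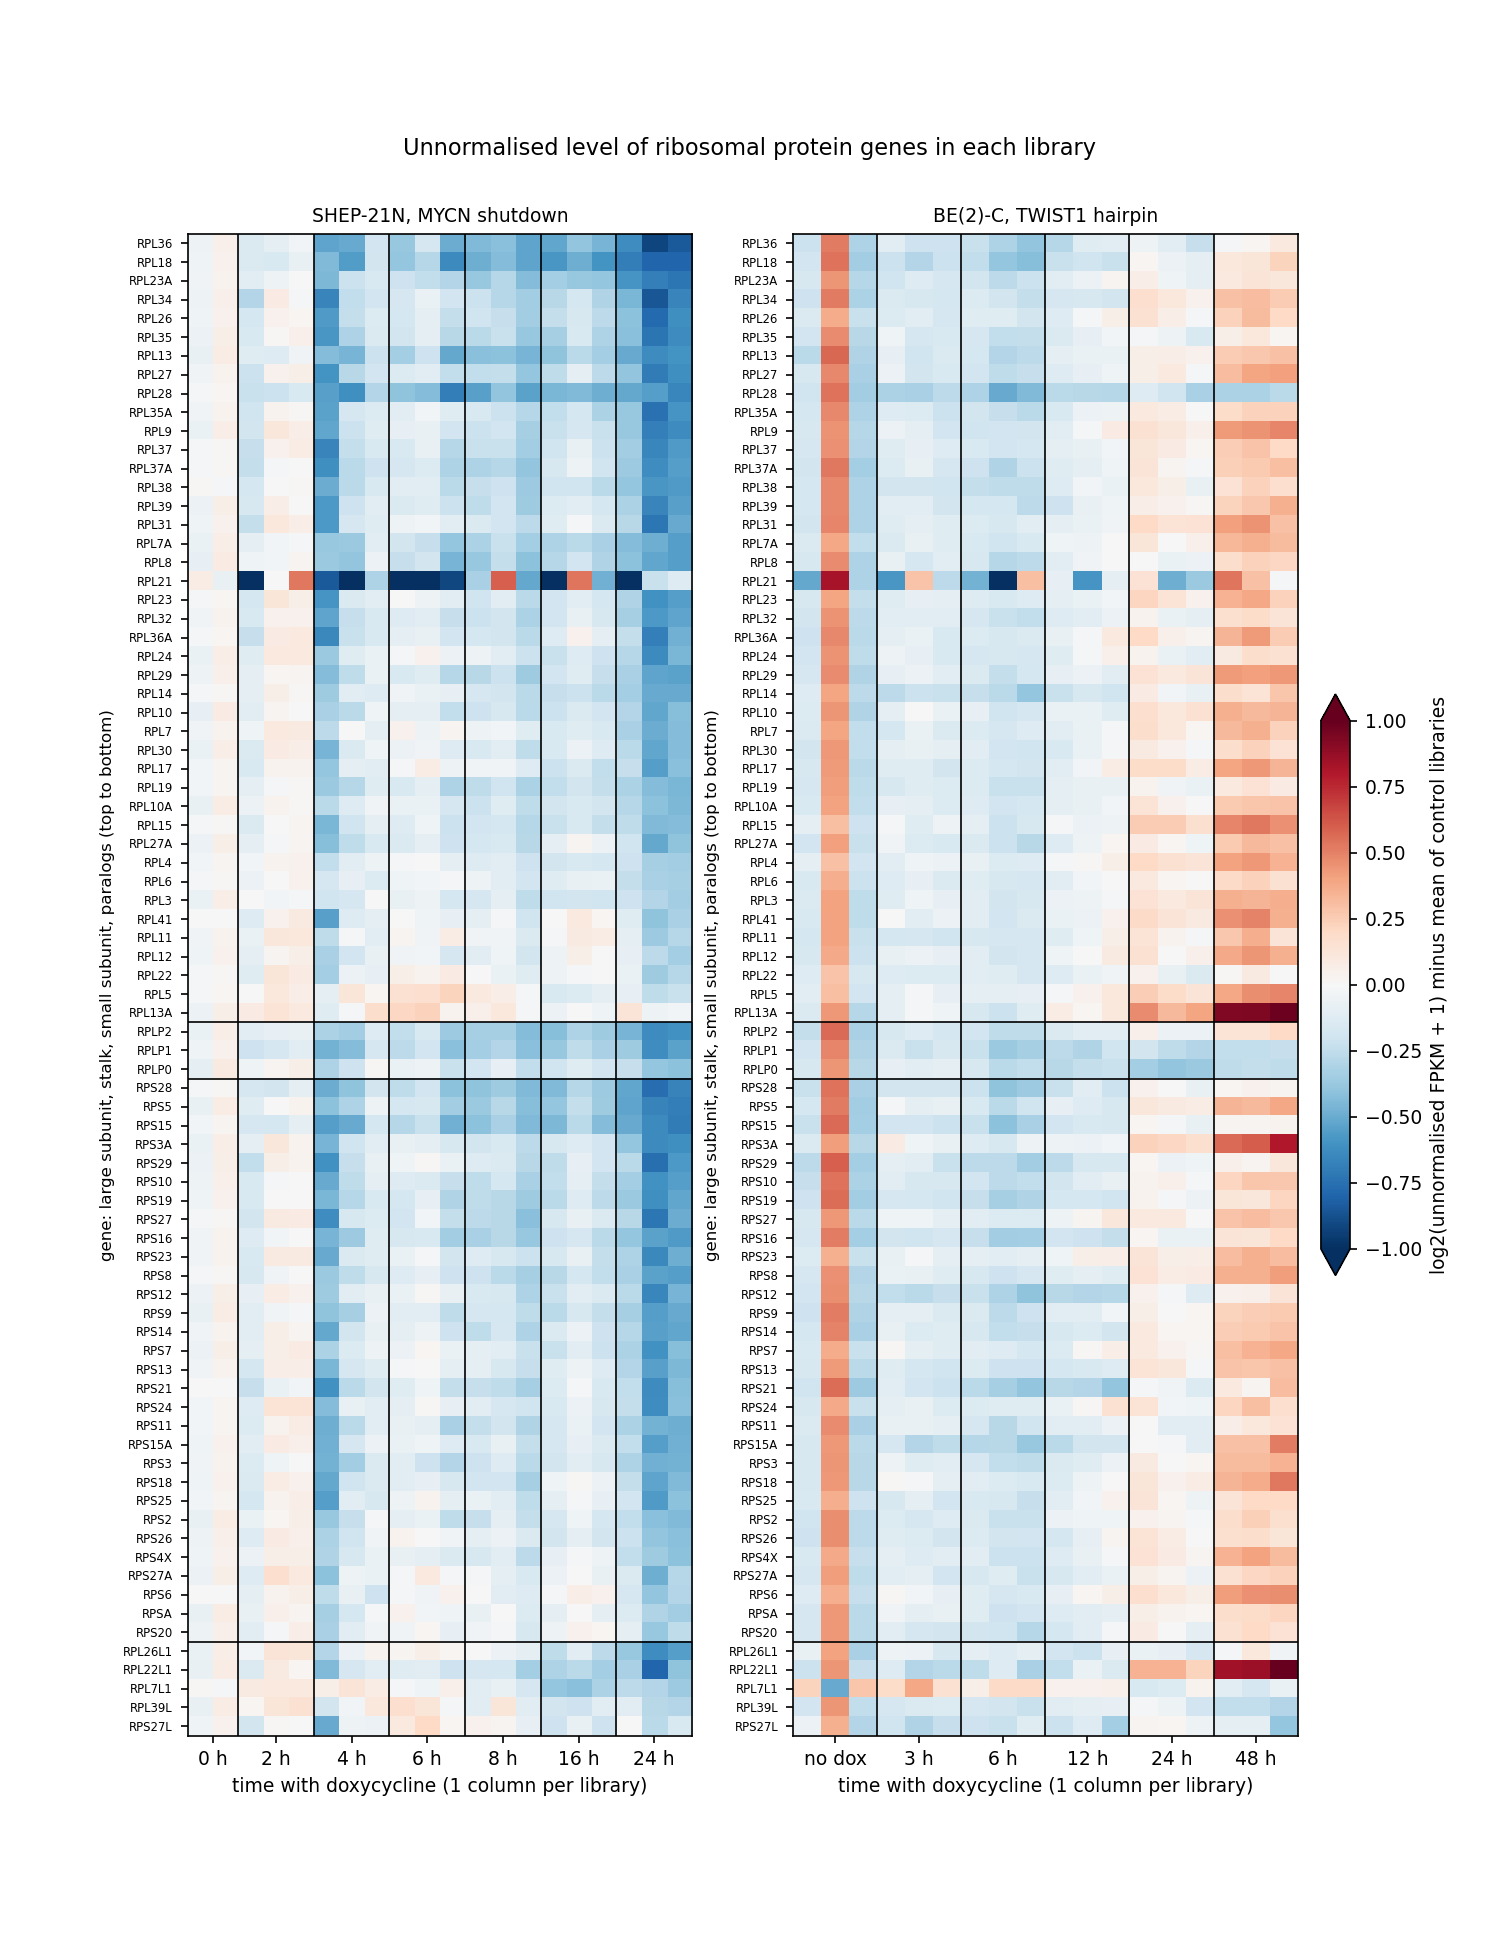
Unnormalised log2(FPKM + 1) of 80 of the 82 genes in each library minus the mean of that model's control libraries, with genes as rows (large subunit, stalk, small subunit, paralogs from top to bottom) and libraries as columns by time; red is above and blue below the control mean. RPL28 is blue from 4 h on in SHEP-21N, RPL13A and RPL22L1 are red at 48 h in BE(2)-C (0.95 and 0.91), and BE(2)-C control library 1 is red in nearly every row.

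At 24 h of MYCN shutdown the members fell broadly, with a larger median change than that of all tested genes. On the rescaled scale 63 of 82 (76.8%) were called lower and 0 higher, against 32.4% of all tested genes called lower and 6.16% called higher. The median change was -0.72 over members (range -1.05 to -0.25) and -0.31 over all tested genes. Fewer cells of a type and less RNA per cell cannot be told apart in such bulk samples. Unnormalised, 79 of 82 (96.3%) were lower, against 36.4% of tested genes, with medians of -0.46 over members and -0.04 over all genes, and on the centred scale 70 were lower, against 32.2%. In 69 members every 24 h library lay below both 0 h libraries on the rescaled scale, which was so for 43.8% of all genes.

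The count at 24 h after rescaling hung on the filter and on single libraries. The counts below with a library left out have no share of all tested genes beside them. They show only how far the count moves with single libraries. With all 23621 entries tested and no filter on low values, 10 of 82 were called lower, against 13.4% of all entries. With the filter it was 0 without 0 h library 2, 37 without 0 h library 1, 14 without 24 h library 1, 6 without 24 h library 2 and 80 without 24 h library 0, while the median change stayed between -0.95 and -0.54 whichever of the 20 libraries was left out. With unnormalised values the count stayed between 65 and 79 under the same omissions, and on the centred scale between 25 (without 0 h library 2) and 79.

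Between 8 and 24 h, a contrast whose difference leaves out the 0 h libraries while its spread includes them, no member passed on the rescaled scale, with 69 at an unadjusted p under 0.05 in limma and a median of -0.52 (all genes -0.26, background 1.33%). Without 24 h library 0, 79 passed, while the background of 1.33% is that of the fit with all libraries. Counts with a library left out stand here without their own share of all genes. They show only how far the count moves with single libraries. On the unnormalised scale 37 of 82 were lower at 24 h than at 8 h (median -0.23), against 19.2% of all genes, and the count was 12, 13, 10 and 12 without 8 h library 0, 8 h library 1, 24 h library 1 and 24 h library 2, and 62 without 24 h library 0. On the centred scale 36 were lower, against 16.1% of all genes, with 75 without 24 h library 0 and 7 to 9 without any one of the other 8 and 24 h libraries except 8 h library 2.

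RPL36 showed the largest fall at 24 h. It had 2002, 1311 and 1089 rescaled FPKM at 24 h, against 2649 and 3263 at 0 h. No 24 h library reached the 0 h range, and 24 h library 0 was the highest of its group. RPL36 fell by 1.05 (SE 0.263, limma adjusted p = 0.00605), and by 0.79 on the unnormalised scale. RPL18 had 963.9, 722.9 and 574.2 rescaled FPKM at 24 h, against 1361 and 1645 at 0 h, without overlap, and fell by 1.02 (SE 0.255, adjusted p = 0.00596). RPL23A, at the exit of the peptide tunnel, fell by 0.93 and RPL34 by 0.92.

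At the other end stood RPL13A, a large-subunit protein whose gene also hosts small nucleolar RNAs in its introns. It had 526.5, 371.8 and 300.6 rescaled FPKM at 24 h, against 416.3 and 515.9 at 0 h, and the groups overlapped. Its change was -0.25 (adjusted p = 0.427) and, on the unnormalised scale, 0.02, with 473.6, 416.0 and 423.2 FPKM at 24 h, against 414.4 and 450.1 at 0 h. RPS27L had 111.8, 74.5 and 64.6 rescaled FPKM at 24 h, against 99.4 and 119.6 at 0 h, a change of -0.42 (adjusted p = 0.182) with overlapping groups. RPL5 (-0.45, adjusted p = 0.115), RPL12, at the base of the stalk (-0.48, adjusted p = 0.127), and RPL39L (-0.50, adjusted p = 0.102) made up the 5 smallest changes.

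By role, 34 of 43 large-subunit genes (median -0.74) and 24 of 31 small-subunit genes (median -0.71) fell at 24 h on the rescaled scale. Of all tested genes 32.4% were called lower (median -0.31). Of the stalk proteins, which recruit the translation factors, RPLP1 (-0.76, adjusted p = 0.0259) and RPLP2 (-0.82, adjusted p = 0.016) fell, and RPLP0 had -0.60 (adjusted p = 0.0646). Neither RPL5 nor RPL11 (-0.51, adjusted p = 0.0894) of the 5S particle passed; both did on the unnormalised scale, RPL5 with -0.19. RPS6, the substrate of the S6 kinases, had -0.55 (adjusted p = 0.0547) and fell by 0.29 on the unnormalised scale (adjusted p = 0.00201). RPS27A, made as a fusion to ubiquitin, had -0.57 (adjusted p = 0.0678). Of genes mutated in Diamond-Blackfan anaemia, RPL35A (-0.83), RPS19 (-0.76) and RPS24 (-0.68) fell. RPS26 (-0.61, adjusted p = 0.0535), RPL5 and RPL11 did not pass. All of these genes were lower on the unnormalised scale.

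The share of FPKM taken by the members depended on what it was taken of. Members held 22.4 to 24.9% of the unnormalised FPKM of tested genes (small RNA entries left out) at 24 h, against 26.7 to 26.9% at 0 h. These ranges did not overlap, but some earlier libraries also lay in the 24 h range. They were 2 h library 0 (24.86%), 4 h library 0 (23.01%) and 8 h library 2 (24.91%). Of the FPKM of all entries but the spike-ins they held 20.7, 18.0 and 19.1% at 24 h, against 19.7 and 19.6% at 0 h, with overlapping groups. The summed large-subunit level stayed 1.01 to 1.05 times the small-subunit level in all 20 libraries. Other genes of high level were lower as well: the median change of 899 genes outside the list with a mean of 100 FPKM or more was -0.57 on the rescaled scale, against -0.43 for genes of 10 to 100 FPKM and -0.13 for genes of 1 to 10 FPKM, and 404 of the 899 were called lower. The part of level in the members' result was not tested.

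In BE(2)-C, knockdown of TWIST1 left the members without a call until 48 h on the rescaled scale. limma called 0 of 82 at 3, 6, 12 and 24 h, with 4, 0, 0 and 0 at an unadjusted p under 0.05, against backgrounds of 0.0175%, 0.0175%, 0.0262% and 0.586% called lower. Median changes over members were -0.59, 0.07, 0.17 and -0.25, and over all genes -0.43, 0.22, 0.19 and -0.22. At 48 h 81 of 82 (98.8%) were called lower, against 93.3% of all tested genes, a share near the background. The median was -1.45 over members and -1.36 over all genes. The change differed with level: 874 genes outside the list with a mean of 100 FPKM or more had a median of -1.72. Genes of 10 to 100 FPKM had -1.52 and genes of 1 to 10 FPKM -1.03. Centred on library medians, these values were -0.30, -0.10 and 0.39, against -0.03 over members. The part of level was not tested. Against 24 h, all 82 were lower at 48 h (median -1.21), as were 92.3% of all genes.

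The spike-ins moved with this fall: their summed unnormalised FPKM were 90085, 57913 and 140360 at 48 h, against 21429, 36863 and 26380 without doxycycline. Their part in the result was not tested beyond the comparison of scales. The 3 libraries at 48 h differed from one another on the rescaled scale, with summed member levels of 69720, 111700 and 46550 FPKM, and were close on the unnormalised scale, with 183700, 188100 and 186800 FPKM. Leaving out any 1 of the 18 libraries left 80 to 82 members lower at 48 h, with medians from -1.78 to -1.14. With all libraries 93.3% of all tested genes were called lower there, and the shares in the reduced fits are not given.

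On the unnormalised scale the direction at 48 h was the opposite, with 76 of 82 changes above 0, and the number called depended on control library 1. With all libraries 23 of 82 members were higher and 0 lower, against 18.1% of genes higher and 21.3% lower, with a median of 0.25 over members and 0.02 over all genes (33 members at an unadjusted p under 0.05 in limma). Without control library 1, which stands apart, 75 of 82 were higher and 1 lower, against 27.7% and 28.3% of all genes, with a median of 0.48. Without control library 0 or 2 instead, 8 were higher each time, and 1 and 5 were lower. Without one of the 48 h libraries 12, 12 and 14 were higher. Counts in this paragraph without control library 0 or 2, or without a 48 h library, have no share of all genes beside them. Centred on library medians, 2 were higher (RPL13A and RPL22L1) and 4 lower (RPL28, RPLP0, RPLP1 and RPL39L), against 30.6% and 21.9% of all genes, with a median of -0.03; without control library 1 these counts were 35 and 5, against 37.6% and 23.4%, and without control library 2 there were 13 lower.

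The contrast of 48 with 24 h does not hold the control libraries in its difference. The median unnormalised change was 0.20 over members and 0.00 over all genes, RPL13A and RPL22L1 were called higher (background 1.35%; neither was without any one of the 24 or 48 h libraries) and 20 members had an unadjusted p under 0.05. The spread that this test uses still includes the control libraries, and with control library 1 out of the fit 66 members were higher and 1 lower (backgrounds 8.58% and 10.8%). At 24 h against no doxycycline, 1 member was higher (RPL13A, 0.40, adjusted p = 0.0309; background 9.55%) and 1 lower (RPLP0, -0.37, adjusted p = 0.0486; background 13.6%), and without control library 1 there were 73 higher and 2 lower, against 22.4% and 22.3% of genes. At 12 h the same omission turned a count of 0 higher (0 at an unadjusted p under 0.05 in limma, background 0.752%) into 37, against 7.16% of genes.

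Within the library, the members took a growing part. They held 24.2, 29.0 and 23.4% of unnormalised FPKM of tested genes in the control libraries, 26.3 to 27.0% at 24 h and 29.3 to 29.8% at 48 h; of all entries but the spike-ins they held 23.7 to 24.4% at 48 h and 17.65 to 21.0% in the controls. All 48 h libraries lay above all others of the course, with control library 1 close below them. The large-to-small ratio of summed levels stayed at 1.12 to 1.17 in all 18 libraries.

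**Figure D4:**
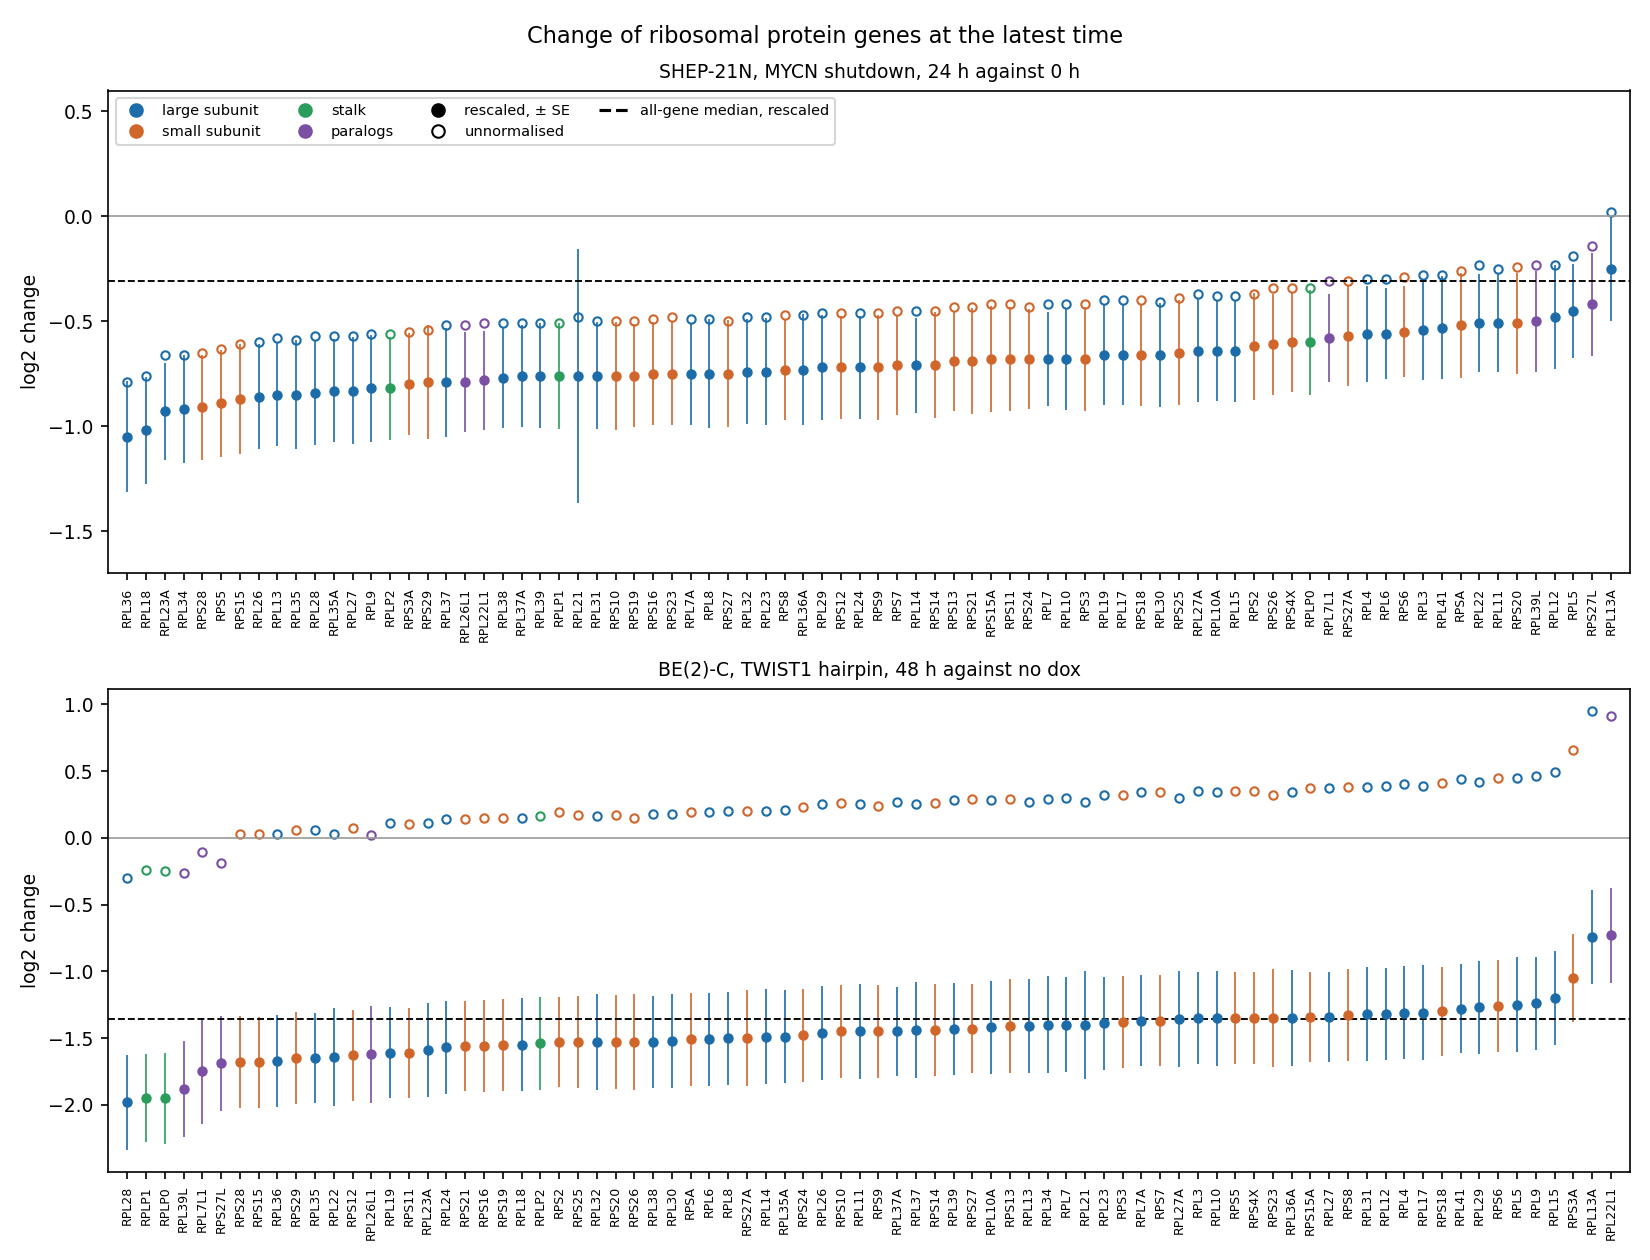
Log2 change of 80 of the 82 genes at the latest time, with SHEP-21N (24 h against 0 h) above and BE(2)-C (48 h against no doxycycline) below; filled points with SE bars are rescaled, open points unnormalised, and the dashed line is the rescaled median of all tested genes. All rescaled points lie below 0 (medians over the 82 genes of -0.72 in SHEP-21N and -1.45 in BE(2)-C), and most unnormalised points of BE(2)-C lie above 0 (median 0.25).

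The members with the largest rescaled falls at 48 h were RPL28 and the stalk proteins RPLP1 and RPLP0. RPL28 had 166.3, 259.1 and 111.6 rescaled FPKM at 48 h, against 746.0, 734.8 and 549.8 without doxycycline, without overlap, and fell by 1.98 (SE 0.355, limma adjusted p = 4.51e-05). RPLP0, which anchors the stalk, had 856.6, 1353 and 562.4 rescaled FPKM at 48 h, against 3854, 3441 and 2867 without doxycycline, and fell by 1.95 (SE 0.342, adjusted p = 3.52e-05). RPLP1 had 1421, 2224 and 943.8 at 48 h, against 6300, 5900 and 4686. Library 1 was the highest and library 2 the lowest 48 h library in each of these genes. Unnormalised, RPLP0 had 2254, 2275 and 2255 FPKM at 48 h, against 2398, 3651 and 2211, with overlapping groups and a change of -0.25 (adjusted p = 0.137), so a lower share of the library was not shown for it at 48 h. RPL39L (-1.88) and RPL7L1 (-1.75) completed the 5 largest falls. RPL7L1 had 30.0, 44.8 and 20.0 rescaled FPKM at 48 h, against 152.3, 54.7 and 131.6, where the low control value is again library 1; without that library its change was -2.20.

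RPL13A and RPL22L1 had the smallest rescaled changes and the largest rises within the library. RPL22L1 had 110.8, 111.7 and 127.9 unnormalised FPKM at 48 h, against 52.9, 84.0 and 52.1 without doxycycline, and 78.5, 78.4 and 71.8 at 24 h. All 48 h libraries lay above all 24 h and control libraries, and the 48 h values rose by 0.91 over the controls (SE 0.136, limma adjusted p = 8.86e-05) and by 0.61 over 24 h (SE 0.136, adjusted p = 0.0277). After rescaling it had 43.8, 68.5 and 32.6 FPKM at 48 h, against 84.2, 79.6 and 68.7, a change of -0.73 that did not pass (SE 0.357, adjusted p = 0.0519), the only such member. RPL13A had 886.5, 889.5 and 919.7 unnormalised FPKM at 48 h, against 420.4, 627.9 and 382.5 without doxycycline, and 646.1, 583.6 and 612.6 at 24 h. Its 48 h libraries did not overlap the others, and it rose by 0.95 over the controls (SE 0.124, adjusted p = 2.56e-05). The rescaled change of RPL13A was -0.74 (SE 0.352, adjusted p = 0.0459), with overlapping groups, and it was not called in 12 of the 18 fits that left out 1 library.

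RPS3A, a small-subunit protein, came next, with 3010, 3082 and 3545 unnormalised FPKM at 48 h, against 1834, 2715 and 1679 without doxycycline, no overlap, and a rise of 0.66 (limma adjusted p = 0.000948). Its rescaled change was -1.05 (adjusted p = 0.00445). In 7 members the 48 h libraries lay above all control libraries on the unnormalised scale: RPL13A, RPL22L1, RPS3A, RPL15, RPL5, RPS6 and RPL4 (19.7% of all genes did so). RPL15 and RPL9, both of the large subunit, had rescaled changes of -1.20 and -1.24, and completed the 5 smallest. RPL5 had 1123, 1187 and 1205 unnormalised FPKM at 48 h, against 797.7, 1057 and 753.8 without doxycycline, and rose by 0.45 on that scale (adjusted p = 0.00149), while its rescaled level fell by 1.25.

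By role, all 43 large-subunit genes (median -1.41), all 31 small-subunit genes (-1.47) and all 3 stalk genes (-1.95) were called lower at 48 h on the rescaled scale. So were 4 of 5 paralogs (-1.69), both genes of the 5S particle and the Diamond-Blackfan genes named for SHEP-21N. These counts are near the background, since 93.3% of all tested genes were called lower (median -1.36). Unnormalised, 14 large-subunit genes, 8 small-subunit genes and 1 paralog were higher and no stalk gene was, against 18.1% of all genes. The stalk median was -0.24 against medians of 0.28 and 0.24 for the large and small subunits. This median of 3 genes does not describe RPLP2, whose unnormalised change was above 0. RPLP2 had 1827, 1831 and 1909 unnormalised FPKM at 48 h, against 1408, 2463 and 1326 without doxycycline, with overlapping groups. RPL12, at the stalk's base, had 0.39 there. Of those Diamond-Blackfan genes, RPL5 was called higher and the others had changes from 0.15 to 0.25.

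Of 10 ratios of a paralog to its parent, 5 in each model, none passed the test between the last time and the controls, and several had groups that did not overlap. RPL22L1, the copy of the RNA-binding protein RPL22, reached 43.3, 41.4 and 50.5% of the unnormalised RPL22 level at 48 h in BE(2)-C, against 22.8, 27.1 and 22.9% without doxycycline, and lay at 30.0, 32.5 and 31.2% at 24 h. The means were 45.1 ± 4.81% at 48 h and 24.2 ± 2.44% in the controls (SD, n = 3 each), without overlap. In SHEP-21N it had 15.5, 13.6 and 17.2% at 24 h, against 17.9 and 19.5% at 0 h. An exact permutation test of the log ratio, two-sided over libraries, gave p = 0.1 for BE(2)-C, the smallest it allows, and p = 0.2 for SHEP-21N (0.167 and 0.25 after Benjamini-Hochberg adjustment over 10 such tests), so neither design can reach 0.05. RPL22 itself had 255.7, 270.0 and 253.3 unnormalised FPKM at 48 h, against 232.7, 310.4 and 227.4 without doxycycline, and did not pass (0.03, adjusted p = 0.814).

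Most other ratios in BE(2)-C were lower at 48 h. RPL39L had 1.695, 1.642 and 1.501% of RPL39 at 48 h, against 2.32, 2.29 and 2.44% without doxycycline. RPS27L had 0.301, 0.296 and 0.245% of RPS27 at 48 h, against 0.420, 0.376 and 0.382%. Neither pair of groups overlapped, nor did those of RPL26L1, with means of 3.20% of RPL26 at 48 h and 3.76% in the controls. In SHEP-21N at 24 h the ratios of RPL39L and RPS27L were above those at 0 h, at 1.57, 1.77 and 1.61% of RPL39 at 24 h, against 1.34 and 1.38% at 0 h, and at 1.57, 1.77 and 1.64% of RPS27 at 24 h, against 1.27 and 1.33% at 0 h. Both ratios had already been above 0 h at earlier times. For RPL39L this was so at each time from 2 to 8 h, with 1.541, 1.413 and 1.509% at 2 h and 1.502, 1.689 and 1.605% at 8 h. For RPS27L it was so from 4 to 8 h, with 1.402, 1.402 and 1.373% at 4 h and 1.611, 1.602 and 1.635% at 8 h. At 16 h neither lay apart from 0 h, with 1.31, 1.26 and 1.43% for RPL39L and 1.26, 1.30 and 1.24% for RPS27L. RPL26L1 averaged 4.17% of RPL26 at 24 h and 3.95% at 0 h, and RPL7L1 6.51% of RPL7 at 24 h and 6.05% at 0 h (exact permutation p = 0.2 and 0.3). For RPL39L and RPS27L in both models and RPL26L1 in BE(2)-C the exact permutation p was 0.1 (0.167 adjusted), the smallest the design allows. RPL7L1, by name a copy of RPL7, had 3.56, 3.34 and 3.92% of RPL7 at 48 h, against 6.199, 2.572 and 6.955% (exact permutation p = 0.4), overlapping through control library 1. These ratios were taken from unnormalised values and can differ after rescaling, which did not use a common factor for all genes of a library. In BE(2)-C 48 h library 0 it took RPS27L from 21.4 to 8.72 FPKM and RPS27 from 7117 to 2677 FPKM. Each ratio shows unequal change only.

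**Figure D5:**
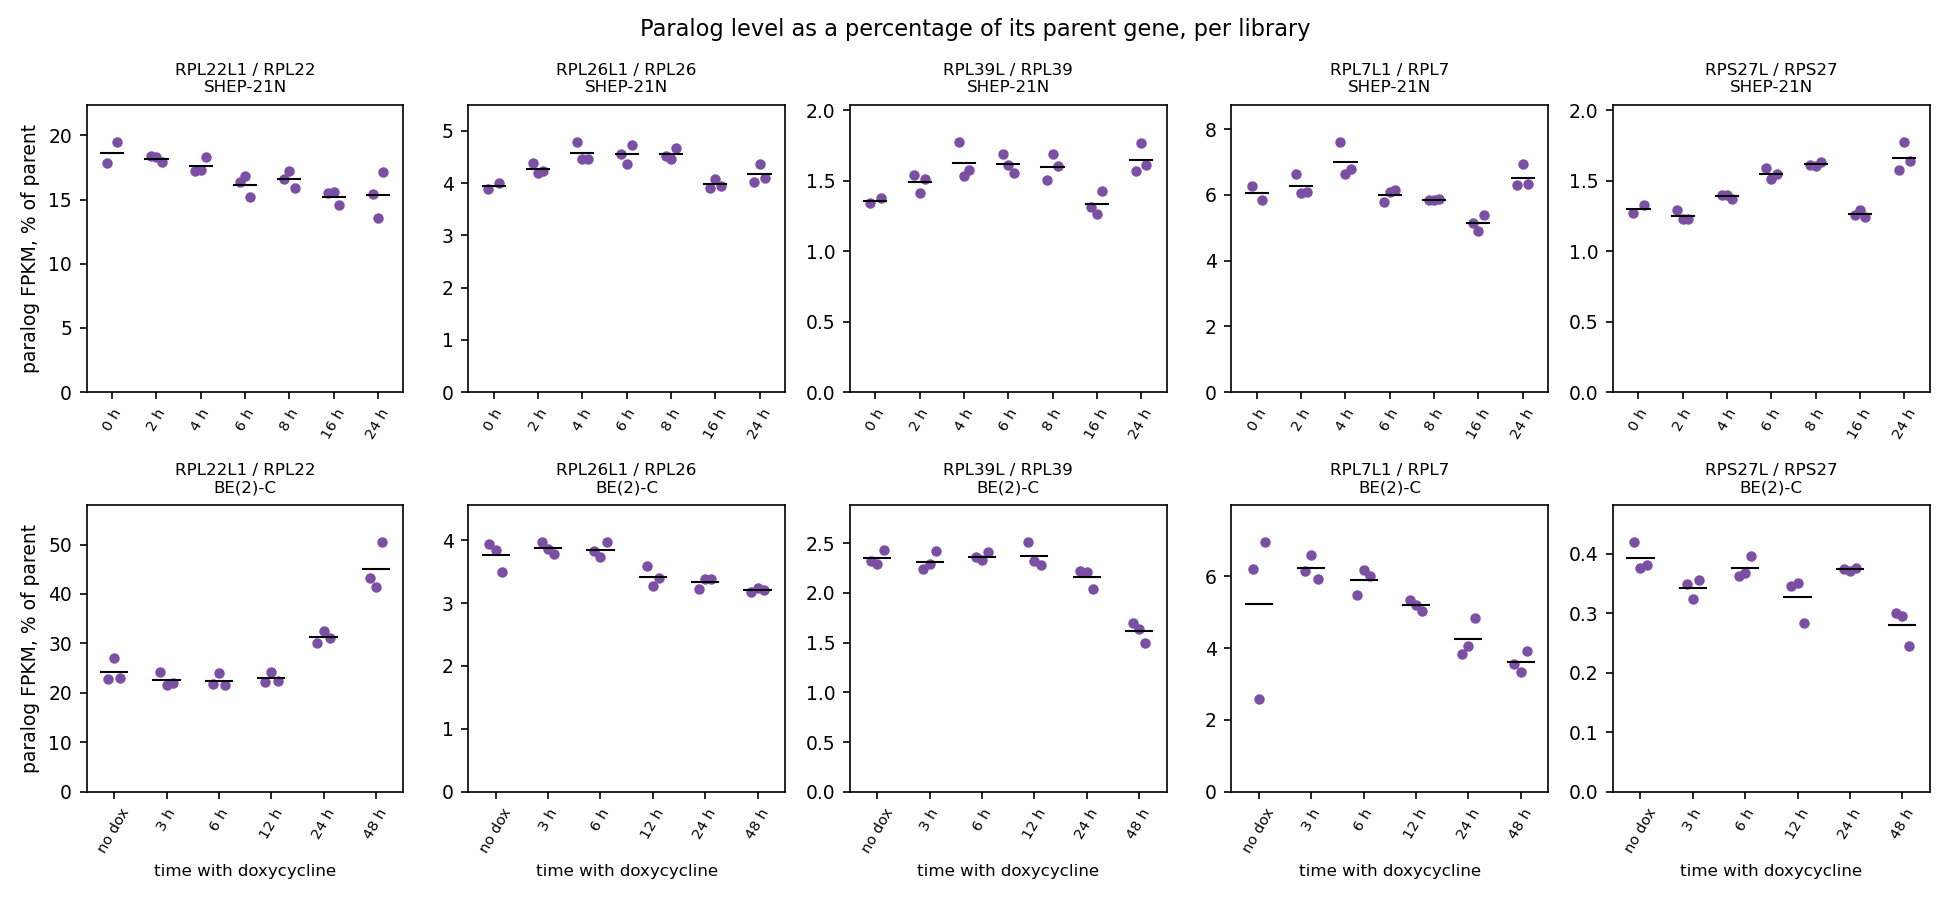
Unnormalised level of each of the 5 paralogs as a percent of its parent gene in each library, by hours of doxycycline, for SHEP-21N and BE(2)-C. RPL22L1 in BE(2)-C reaches 41.4 to 50.5% at 48 h, against 22.8 to 27.1% without doxycycline.

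Related gene lists gave a point of reference at the last time. In SHEP-21N at 24 h on the rescaled scale, 57 of 76 mitochondrial ribosomal protein genes were lower (median -0.78). So were 29 of 35 ribosome assembly factors (-0.96) and 9 of 18 other genes with TOP messages (-0.55). Most of those 18 are translation genes, but NPM1, HNRNPA1 and VIM are also among them. The share over all tested genes was 32.4% (median -0.31). The assembly factors had been called lower earlier on the unnormalised scale, with 18, 24, 26 and 29 of 35 at 4, 6, 8 and 16 h, against 18.1%, 29.8%, 29.2% and 27.5% of all genes; 5 and 3 were called higher at 4 and 6 h, against 15.8% and 26.8% of all genes, and 0 at 8 and 16 h. In BE(2)-C at 48 h all of these lists were lower after rescaling, with medians of -1.60, -1.63 and -1.40 in the same order, against -1.45 for the cytosolic genes. Of all tested genes 93.3% were lower there. Unnormalised, 11 of the 18 other genes with TOP messages were higher and 0 lower (median 0.26). Of the mitochondrial ribosomal genes 13 were higher and 7 lower (0.02), and of the assembly factors 4 were higher and 8 lower (-0.06). Of all genes 18.1% were higher and 21.3% lower. On the centred scale the TOP list had 1 higher and 2 lower (median 0.02), the mitochondrial list 5 and 19 (-0.18) and the assembly list 0 and 11 (-0.21), against 30.6% of all genes higher and 21.9% lower (median 0.06).

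Members with and without the pyrimidine tract had similar median changes. The 51 members with it had a median rescaled change of -0.72 in SHEP-21N at 24 h and -1.45 in BE(2)-C at 48 h, against -0.66 and -1.50 in the 15 members without it. Their levels differed more: the median unnormalised control level was 2165 FPKM with the tract and 1420 without it in SHEP-21N, and 1829 against 810.4 FPKM in BE(2)-C. The 16 members with no promoter entry had medians of -0.69 and -1.45. The changes of the 82 members in the 2 models, set side by side over genes, had a Pearson r of 0.179 and a Spearman rho of 0.148 on the rescaled scale, and the 2 tables were normalised apart.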

How the data were processed

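Polyadenylated RNA from counted cells, with ERCC spike-ins added at lysis, was sequenced from stranded libraries, per the labels' protocols. Per the submitters' processing notes, HISAT, Cufflinks 2.0.0 and the hg19 build were used. FPKM were deposited by the authors for 23713 entries (92 spike-ins) per model, both unnormalised and rescaled to the spike-ins; the sources used here give neither the rescaling formula nor the depth. Of 49 listed samples, 38 have columns used here (20 and 18); the other 11, BE(2)-C with DMSO or JQ1, were not analysed here. Columns carry numbers 0 to 2 and labels 1 to 3, so columns were mapped to groups only.

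Genes with mean unnormalised FPKM of at least 1 were tested as log2(rescaled FPKM + 1) with limma 3.58.1 (R 4.3.3), 1 mean per time and an intensity trend, Benjamini-Hochberg adjusted over all tested genes. Alternatives were the unnormalised table, centring on library medians, a pseudocount of 0.1, no filter, no trend, and each library left out; leaving out libraries on the other scales, the column number as a block, the ranges of level and the denominators of shares were added after seeing the data. Named members were the 5 highest and 5 lowest levels, the 5 largest and 5 smallest last changes, those against the majority, paralogs with parents, and role groups; RPL4 and the early changes were chosen after their values were seen, and a few genes are not reported here by name. Members and lists were chosen with earlier results of these data known. On simulated data with the real spreads (11867 genes for SHEP-21N 24 h against 0 h, 11433 for BE(2)-C 48 h against no doxycycline), log2 effects of 1 were recovered in 86.6% and 16.4%, and of 0.5 in 14.9% and 0%. The simulation drew each gene independently and changed only few genes. It held no shift shared by a whole library, so these rates are not the power of the tests on the real data. Sequences and motifs were read from the RefSeq promoter table with Python 3.11.15, numpy 2.4.6 and pandas 2.3.3, and figures were drawn with matplotlib 3.10.9.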

Additional observations from a re-analysis of the deposited data

How the results depend on the processing

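The number of members called lower in SHEP-21N depended on the scale and on the filter. In place of 0 on the rescaled scale, the unnormalised and centred scales gave 38 and 11 lower at 4 h, 14 and 4 at 6 h (and 1 higher on each), 31 and 7 at 8 h, 22 and 12 at 16 h, and 37 and 36 for 24 h against 8 h. At 24 h against 0 h, testing all entries with no filter on low values left 10 of 63. In BE(2)-C the unnormalised scale gave 1 lower and 1 higher at 24 h, and 0 lower and 23 higher at 48 h; centring gave 4 lower and 2 higher at 48 h. For 48 h against 24 h the unnormalised scale gave 0 lower and 2 higher, and centring 0 lower. The cause was not tested. A pseudocount of 0.1 and a fit without the intensity trend left these counts within 1.5 times.

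With each library left out in turn, the rescaled count of lower members ran over 0 to 80 for SHEP-21N 24 h against 0 h, 0 to 79 for 24 h against 8 h, 80 to 82 for BE(2)-C 48 h against no doxycycline and 73 to 82 for 48 h against 24 h. On the unnormalised scale it ran over 65 to 79 in SHEP-21N at 24 h, and in BE(2)-C at 48 h over 0 to 5 lower and 8 to 75 higher. On the centred scale the ranges were 25 to 79 lower in SHEP-21N, and 0 to 13 lower and 2 to 35 higher in BE(2)-C. The ranges above and the block counts below have no share of all tested genes from the same fits beside them. With all libraries and no block, 32.4% of tested genes were called lower after rescaling in SHEP-21N at 24 h against 0 h. In BE(2)-C at 48 h it was 93.3% against no doxycycline and 92.3% against 24 h. The columns carry numbers 0 to 2 and the labels 1 to 3. With the column number as a replicate block, chosen after seeing the data, the rescaled fit called 45 members lower in SHEP-21N at 24 h against 0 h, 82 in BE(2)-C at 48 h against no doxycycline and 82 against 24 h, and 0 at all other times. The block moved a count of calls by over 1.5 times in SHEP-21N to 19 lower unnormalised and 2 centred at 4 h, and to 24 and 22 for 24 h against 8 h, and in BE(2)-C it left 0 lower unnormalised at 24 h in place of 1 and gave 1 higher centred for 48 h against 24 h in place of 0. Deviations from the group means correlated over 0.1 in 7 of 57 pairs of same-numbered libraries in SHEP-21N and in 5 of 45 in BE(2)-C on the rescaled scale. By these correlations 4 of 20 and 5 of 18 libraries matched best with their own number. A correlation over genes cannot see a shift of a whole library, so a shared origin of same-numbered libraries was not tested. In BE(2)-C, library 1 still had the highest rescaled sum over members at each time with doxycycline.

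Changes that turned positive were as follows. In SHEP-21N, RPL13A had 0.02 unnormalised and 0.05 centred. In BE(2)-C at 48 h, the unnormalised change was 0.95 for RPL13A, 0.91 for RPL22L1, 0.66 for RPS3A, 0.49 for RPL15, 0.46 for RPL9, 0.45 for RPL5 and RPS6, 0.44 for RPL41, 0.39 for RPL12, 0.35 for RPL3 and RPS4X, 0.34 for RPL10, 0.30 for RPL7, 0.29 for RPS27, 0.28 for RPL39, 0.27 for RPL37A, 0.25 for RPL26 and RPL11, 0.23 for RPS24, 0.21 for RPL35A, 0.20 for RPS27A, 0.19 for RPS2, 0.16 for RPLP2, 0.15 for RPS19 and RPS26, 0.03 for RPL22 and 0.02 for RPL26L1. Centred, it was 0.69 for RPL22L1, 0.68 for RPL13A, 0.37 for RPS3A, 0.23 for RPL15, 0.18 for RPL9, 0.17 for RPL5 and RPS6, 0.14 for RPL41, 0.11 for RPL12, 0.07 for RPL3, RPL10 and RPS4X, and 0.02 for RPL7. Leaving out single libraries turned no named change: 594 of 612 such values in BE(2)-C and 625 of 700 in SHEP-21N kept their direction and their side of the threshold.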
